A study of Mus musculus with 18 samples.

Results

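Methylation of DNA was compared between virgin mice of 9 weeks and virgin mice of 3 weeks, across the step from puberty to the adult gland. All 6 virgin libraries of the 18 in the series were used. They came from mammary epithelium of C57BL/6 females and carried the cell type labels stem, progenitor and mature, 1 library for each cell type at each week. All 6 libraries were from mice labelled virgin, and neither week carried a transgene, an allele or an agent in its labels. The labels do not give the sorting markers, the number of animals behind a library or whether the cell types of 1 week shared animals. With 1 library per cell type and week, paired p-values measure how far the week difference varied between the cell types. Part of that variation may be technical, and a change confined to 1 cell type adds to it. Each week 9 library was paired with the week 3 library of the same cell type label.

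Between these ages the ducts of the mouse mammary gland grow out from a small rudiment and branch through the fat pad under estrogen, growth hormone and progesterone. The epithelium has an outer basal layer, in which transplantable stem cells are found, and an inner luminal layer of progenitors and mature hormone-sensing cells. Methylation of CpGs, the sites where C is followed by G, is copied at each division by Dnmt1, is added by Dnmt3a and Dnmt3b and is removed through Tet enzymes. CpG islands at active promoters usually lack it, while imprinted control regions and the islands of the inactive X chromosome carry it on one of both copies, which gives middle levels in female cells.

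Reduced representation bisulfite sequencing cuts DNA with MspI at CCGG sites and reads mostly CpG-rich sequence. Each deposited value was the number of methylated reads over all reads at a CpG, on build mm9. Of 1485193 CpGs listed in any of the 18 files, 1306352 had at least 5 reads in all 6 virgin files and were kept. Summed over CpGs, the reads of a library ran from 77982754 to 117922522 at week 9, with medians of 44 to 70 per CpG. At week 3 they ran from 51818940 to 106181107, with medians of 31 to 59. In these sums, and in those of tiles and promoters below, a read that covers several CpGs is counted at each. The mature library was the deepest of its week at both ages. The reads carry no molecular identifiers, so copies made by PCR cannot be told from separate molecules.

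Promoters were read as windows of 300 bases, from 250 before to 50 after a RefSeq transcription start. The windows of Ubl4a and Sms had the highest week 9 minus week 3 differences among X-linked promoters whose libraries did not overlap by week, and Rspo1 the highest on any chromosome. Plagl1 is an imprinted promoter, and Lep, the gene of the fat cell hormone leptin, had the largest mean difference of the placed marker genes. The sequences are from RefSeq (GRCm38.p6), 5′ to 3′ along the gene, and capitals mark the CpGs measured in all 6 libraries.
Ubl4a: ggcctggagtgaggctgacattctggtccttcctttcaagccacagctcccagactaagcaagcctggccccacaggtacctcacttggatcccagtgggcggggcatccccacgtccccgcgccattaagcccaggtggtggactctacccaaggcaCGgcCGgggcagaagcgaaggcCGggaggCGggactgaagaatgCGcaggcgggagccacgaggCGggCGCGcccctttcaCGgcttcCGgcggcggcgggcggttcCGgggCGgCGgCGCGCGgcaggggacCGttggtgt
Sms: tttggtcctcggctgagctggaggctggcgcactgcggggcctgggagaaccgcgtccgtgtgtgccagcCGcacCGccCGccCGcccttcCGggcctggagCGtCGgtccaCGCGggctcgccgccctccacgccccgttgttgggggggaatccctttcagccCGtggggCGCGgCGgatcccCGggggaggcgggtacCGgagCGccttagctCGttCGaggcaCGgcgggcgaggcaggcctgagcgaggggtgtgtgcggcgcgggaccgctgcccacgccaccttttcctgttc
Rspo1: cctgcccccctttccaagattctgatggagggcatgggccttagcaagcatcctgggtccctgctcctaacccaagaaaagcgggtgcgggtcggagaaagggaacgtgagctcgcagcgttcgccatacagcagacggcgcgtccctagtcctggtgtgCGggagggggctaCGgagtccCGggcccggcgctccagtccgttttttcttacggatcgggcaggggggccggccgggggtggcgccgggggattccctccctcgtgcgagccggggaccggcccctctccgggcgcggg
Plagl1: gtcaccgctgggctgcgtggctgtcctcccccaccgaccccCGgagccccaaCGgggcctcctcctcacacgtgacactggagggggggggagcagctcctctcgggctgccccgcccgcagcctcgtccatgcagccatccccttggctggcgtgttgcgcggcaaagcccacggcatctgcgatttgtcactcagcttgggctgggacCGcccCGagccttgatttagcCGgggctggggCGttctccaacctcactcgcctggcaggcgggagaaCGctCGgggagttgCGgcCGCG
Lep: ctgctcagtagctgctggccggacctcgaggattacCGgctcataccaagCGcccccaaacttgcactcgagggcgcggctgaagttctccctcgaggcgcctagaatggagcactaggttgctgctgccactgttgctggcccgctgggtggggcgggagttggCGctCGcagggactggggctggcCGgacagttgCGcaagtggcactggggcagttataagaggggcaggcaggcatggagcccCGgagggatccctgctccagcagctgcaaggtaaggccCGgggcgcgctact
On mm9 these windows lie at chrX:71613838-71614137 on the minus strand (Ubl4a), chrX:153929251-153929550 on the minus strand (Sms), chr4:124663424-124663723 (Rspo1), chr10:12810388-12810687 (Plagl1) and chr6:29009971-29010270 (Lep) on the plus strand. Ubl4a had 17 measured CpGs of 28 in the window, Sms 19 of 38, Rspo1 3 of 29, Plagl1 11 of 26 and Lep 8 of 19.

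Before the weeks were compared, the libraries were compared with each other over 128959 tiles of 1000 bp with at least 3 shared CpGs. The progenitor and mature libraries did not pair by their cell type labels. The week 9 progenitor library was nearest to the week 3 mature library, from which 1.61% of tiles lay at least 20 percentage points apart, against 2.20% from the week 3 progenitor library. The week 9 mature library was nearest to the week 3 progenitor library, at 1.37% of tiles, against 3.62% from the week 3 mature library. Week 9 stem was nearest to week 3 stem among the week 3 libraries, with 3.32% of tiles 20 points apart. The match was not mutual, since week 3 stem was nearer to week 9 progenitor, at 3.01% of tiles. After the mean of each tile was subtracted, the deviations had a Pearson's r across tiles of 0.182 between week 9 progenitor and week 3 mature and of 0.142 between week 9 mature and week 3 progenitor. Between libraries of the same label, r was -0.0046 for stem, -0.274 for progenitor and -0.224 for mature. Unrelated libraries of equal spread have an r of -0.2 once the mean of 6 is subtracted, so the stem pair lay above that value and the mature pair close to it. These values describe 128959 tiles that share the same 6 libraries and their depths.

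The other 12 libraries of the series gave a second view of the labels, over 77064 tiles measured in all 18 files. The week 9 mature library deviated from the mean of all libraries together with the pregnant and retired stem libraries (r across tiles 0.465) and against the progenitor (r = -0.478) and mature ones (r = -0.350). The week 3 mature library did the opposite, with r of -0.458 towards stem and 0.290 towards mature. Week 9 progenitor had r of 0.228 towards progenitor, and week 9 stem and week 3 stem had r of -0.330 and -0.196 towards stem, where unrelated libraries of equal spread have -0.13. Thinned to equal depth, each of these values kept its sign. Whether the labels, the purity of the sorts or the animals lie behind this was not tested, and the results below are given for each cell type and, where they changed, without the mature pair.

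**Figure D1:**
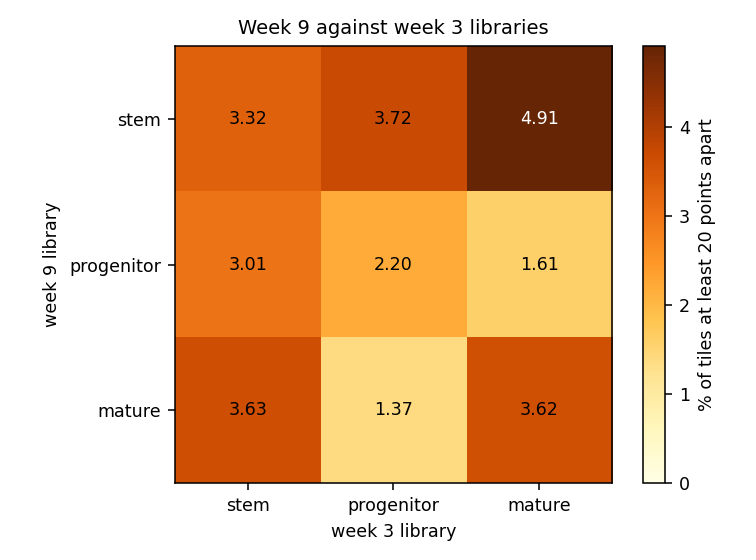
Percentage of 1000 bp tiles at least 20 points apart between each week 9 library (rows) and each week 3 library (columns), over 128959 tiles. The smallest values stand off the diagonal, 1.37% for week 9 mature with week 3 progenitor and 1.61% for week 9 progenitor with week 3 mature.

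The first comparison asked whether the overall level of methylation differed between week 9 and week 3. Mean CpG methylation at week 9 was 47.7% in stem, 47.2% in progenitor and 46.9% in mature cells. At week 3 it was 47.2% in stem, 47.2% in progenitor and 48.0% in mature cells. The 2 weeks overlapped, and the libraries averaged 47.3% ± 0.402 at week 9 and 47.5% ± 0.490 at week 3 (SD, n = 3 each). The difference was 0.527 points in stem, 0.00266 points in progenitor and -1.12 points in mature cells, a mean of -0.198 points that was smaller than the spread between the pairs (SD 0.844; two-sided exact permutation of weeks within pairs, p = 1, where 8 sign patterns allow no p below 0.25). Without the mature pair the mean difference was 0.265 points.

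The pair differences lay farthest apart at CpGs of middle level. At the 209814 CpGs with a mean of 20 to 80% over the 6 libraries, week 9 stem, progenitor and mature had 58.6%, 56.9% and 55.3%, and week 3 stem, progenitor and mature had 57.3%, 56.4% and 59.0%. The difference was 1.24 points in stem, 0.423 points in progenitor and -3.63 points in mature cells (mean -0.654, exact permutation p = 1), and the mean became 0.832 points without the mature pair. At 531789 CpGs above 80% the differences were 0.789, -0.260 and -1.26 points in the same order of cell types, and at 564749 CpGs below 20% they were 0.0142, 0.0940 and -0.0626 points.

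The direction within each cell type was shared by the chromosomes. Stem cells had the higher mean level at week 9 on 19 of 19 autosomes, by 0.428 to 0.623 points. Mature cells had the lower mean level at week 9 on 19 of 19, with differences of -1.27 to -0.982 points. In progenitor cells 10 autosomes were higher and 9 lower at week 9, all within 0.143 points. The chromosomes of a library are not independent measurements. In mature and stem cells the difference was largest where CpGs were sparse. In mature cells it was -1.81 points in tiles of 3 to 9 CpGs, -0.548 points in tiles of 10 to 19 and -0.210 points in tiles of 20 or more, and in stem cells 0.630, 0.415 and 0.196 points. Progenitor cells had no such order, with -0.0085, -0.0531 and 0.0791 points.

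**Figure D2:**
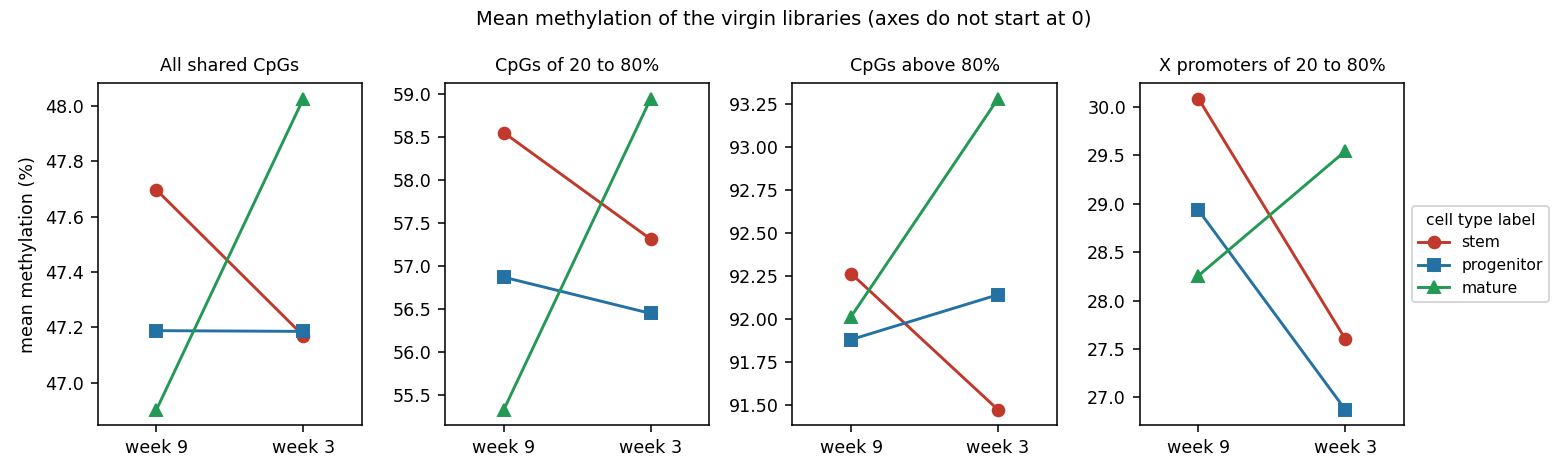
Mean methylation in percent of each virgin library at week 9 (left) and week 3 (right), joined by cell type label, for all shared CpGs, CpGs of 20 to 80%, CpGs above 80% and X-linked promoters of 20 to 80%. Each point is 1 library and the axes do not start at 0. Mature cells lie lower at week 9 in all 4 panels (46.9% against 48.0% over all CpGs) and stem cells higher.

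The next comparison asked which regions differed between the weeks in all cell types. No tile was called: 0 of 128959 tiles (percent called 0) passed an adjusted p under 0.05 with a difference of at least 10 points in a quasi-binomial logistic regression with cell type as a block, and limma on log2 ratios also called 0. At an unadjusted p under 0.05 there were 3820 tiles (2.96%), 1272 of them higher and 2548 lower at week 9, and the smallest adjusted p was 1. With 2 residual degrees of freedom per tile, a missed threshold does not show that the weeks were alike. The mean over the libraries of a week lay within 5 points of the other week in 86.9% of tiles. All 3 week 9 libraries lay above all 3 week 3 libraries in 3699 tiles (2.87%) and below them in 5966 (4.63%). The excess of falls depended on the mature libraries: 10776 tiles lay above and 11625 below without week 9 mature, 11705 above and 10814 below without week 3 mature, and 23805 above and 17980 below without both. Of the 3699 and 5966 tiles, 329 and 596 had a mean difference of at least 10 points.

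Within single cell types many tiles lay far apart, but in different directions. At least 20 points separated the weeks in 2249 tiles that were higher and 2027 that were lower at week 9 in stem cells. In progenitor cells 1232 tiles were higher and 1601 lower, and in mature cells 1281 were higher and 3382 lower, so that 72.5% of the mature tiles were lower at week 9. With 1 library per cell type and week these counts have no test. The week pairs were 20 points apart in 2.20 to 3.62% of tiles. Different cell types of the same week were so in 3.39 to 5.24% at week 9 and in 2.16 to 4.26% at week 3. Differences of this size were thus as common within a week as between the weeks. In at least one cell type 9762 tiles reached 20 points. In all 3 cell types together 1 tile was at least 20 points higher (0.000775% of tiles) and 8 were at least 20 points lower (0.0062%), while 1386 tiles held a rise of that size in one cell type and a fall in another. The pair differences correlated across the 128959 tiles with r of -0.0144 for stem and progenitor, -0.0775 for stem and mature, and -0.308 for progenitor and mature cells. The pairs share no library, while the tiles of a pair share the depth of its 2 libraries.

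**Figure D3:**
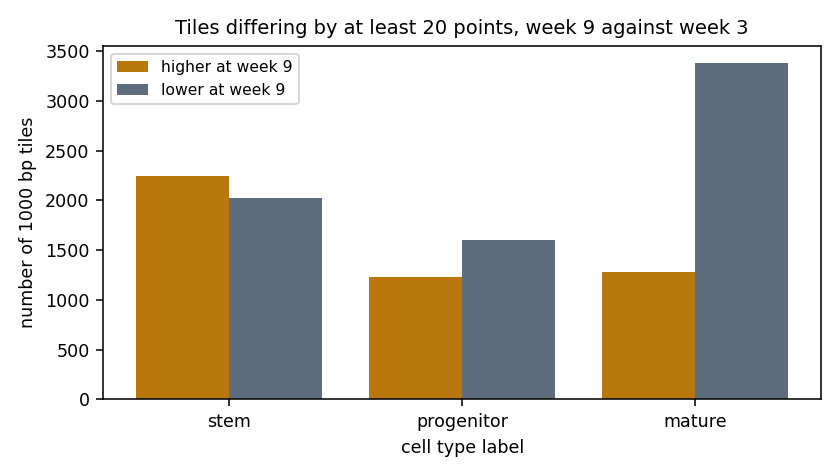
Number of 1000 bp tiles that differed by at least 20 points between week 9 and week 3 in each cell type label, of 128959 tiles. Each bar compares 1 week 9 library with 1 week 3 library. The mature pair has 3382 tiles lower and 1281 higher at week 9, the stem pair 2249 higher and 2027 lower.

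The tiles with the largest difference among those without overlap between the weeks are named by their mm9 position. Of these 12 tiles, 11 had 3 CpGs and the other 4, with 15 to 254 reads per library, and all had an adjusted p of 1. No gene annotation of mm9 was at hand, so only the nearest promoter window that could be placed is given, and other genes may lie nearer. Lowest at week 9 relative to week 3 was the tile at chr2:5267001-5268000. Week 9 stem, progenitor and mature had 39.5%, 66.0% and 66.7% there, and week 3 stem, progenitor and mature had 95.5%, 96.0% and 98.7% (difference -39.3 points, unadjusted p = 0.00139 in the quasi-binomial model). The week 3 libraries lay close together near full methylation, and the week 9 libraries spread below them. The tile at chr10:116667001-116668000 had 41.6%, 44.4% and 32.7% at week 9, against 70.8%, 78.9% and 85.3% at week 3, in the same order of cell types. Its difference was -38.8 points.

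At chr7:125992001-125993000, 6.13 kb downstream of the start window of Knop1, a nucleolar protein gene, week 9 stem, progenitor and mature had 27.9%, 37.2% and 14.5%. Week 3 stem, progenitor and mature had 69.7%, 51.2% and 57.0% there. In the tile at chr14:31183001-31184000, 16.3 kb upstream of the window of Cacna1d, which encodes a subunit of a voltage-gated calcium channel, the values were 56.5%, 30.5% and 59.2% at week 9 and 76.2%, 69.2% and 90.6% at week 3. The tile at chr14:49527001-49528000 averaged 18.2% ± 8.25 at week 9, against 57.5% ± 23.0 at week 3 (SD, n = 3 each). The tile at chr7:111795001-111796000 averaged 31.9% ± 13.4 at week 9, against 66.7% ± 11.7 at week 3, a difference of -34.8 points that was -21.4 points without the stem pair.

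The largest rise among tiles without overlap was at chr19:5871001-5872000, 3.21 kb downstream of the window of Frmd8, whose product binds iRhom proteins. Week 9 stem, progenitor and mature had 78.3%, 33.2% and 21.3%, and week 3 stem, progenitor and mature had 16.7%, 8.16% and 15.5%, so the stem pair held most of the difference of 30.8 points, which was 15.4 points without it. At chr4:123487001-123488000 the libraries had 77.0%, 79.0% and 89.2% at week 9 and 16.7%, 71.9% and 65.4% at week 3, again with the stem pair farthest apart (30.4 points, and 15.5 without it). A more even rise stood at chr5:120634001-120635000, with 83.3%, 65.8% and 84.7% at week 9 and 40.6%, 44.4% and 57.6% at week 3 (difference 30.4 points). The tile at chr11:103036001-103037000, 3.55 kb downstream of the window of Fmnl1, a formin that acts on actin, had 72.1%, 34.3% and 49.0% at week 9 and 15%, 23.1% and 32.3% at week 3. Its difference was 28.3 points, and 14.0 points without the stem pair. The tiles at chr4:123276001-123277000 and chr8:94039001-94040000 differed by 28.0 and 25.2 points.

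Promoters were compared next. Windows of 6876 genes could be placed on mm9, of 27025 genes in the RefSeq table, and 7162 windows had at least 3 shared CpGs. Most were unmethylated at both weeks: 6843 lay below 10% in all 6 libraries, 31 lay above 80% in all 6 and 288 at other levels. None of the 7162 promoters was called (percent called 0), with 217 at an unadjusted p under 0.05 (3.03%) in the quasi-binomial model, a smallest adjusted p of 0.867 and 0 called by limma. The mean difference was within 5 points at 99.3% of promoters. The week 9 libraries all lay above the week 3 libraries at 228 promoters (3.18%) and all below at 345 (4.82%). Of these, 2 lay at least 10 points above and 0 at least 10 points below.

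Both promoters that were at least 10 points higher without overlap were Rspo1 and Ubl4a. Rspo1 encodes R-spondin, a secreted protein that strengthens Wnt signals and is made by luminal cells of the mouse mammary gland. Its promoter had 10.8% of 74 reads in week 9 stem, 2.22% of 45 in progenitor and 30.4% of 23 in mature cells. In week 3 stem, progenitor and mature it had 0 methylated reads of 21, 16 and 67. All these sums run over 3 CpGs, and a read that covers several CpGs is counted at each. Single CpGs had 7 reads in week 3 stem, 5 to 6 in progenitor and 22 to 23 in mature cells. An upper limit for week 3 cannot be taken from the sums. At the CpG 77 bases before the start, week 9 mature had 87.5% of 8 reads and week 9 stem 20% of 25, while the CpG 90 bases before the start was at 0 in all 6 libraries. The Rspo1 difference of 14.5 points (adjusted p = 0.867, quasi-binomial model) thus rests on few reads, and was 6.52 points without the mature pair.

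Ubl4a, an X-linked gene whose ubiquitin-like product helps to deliver membrane proteins to the endoplasmic reticulum, had 645 to 1763 reads per library. Week 9 stem, progenitor and mature had 45.1%, 39.4% and 37.3%, and week 3 stem, progenitor and mature had 31.0%, 21.1% and 28.7%. The weeks did not overlap, with means of 40.6% ± 4.07 at week 9 and 26.9% ± 5.18 at week 3 (SD, n = 3 each), a difference of 13.7 points. The unadjusted p was 0.00507 and the adjusted p 0.867 in the quasi-binomial model. Without the week 9 mature library the difference was 16.2 points and the adjusted p 0.0169. Without both mature libraries the difference was again 16.2 points and the adjusted p 0.0379, and without the week 3 mature library alone the same difference had an adjusted p of 0.123. Leaving out stem or progenitor libraries gave 11.4 to 13.4 points and adjusted p of 0.765 to 0.840 in the same model. The mean over libraries was higher at week 9 at 16 of the 17 CpGs marked in the sequence, and at 10 of them all week 9 libraries lay above all week 3 libraries. By cell type, 14 CpGs were higher at week 9 in stem, 16 in progenitor and 15 in mature cells.

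**Figure D4:**
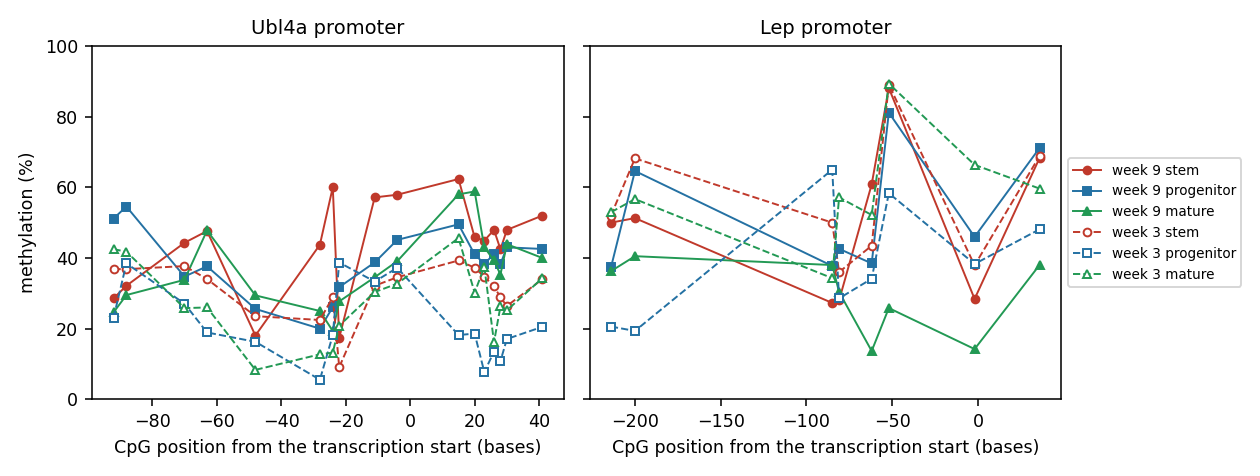
Methylation in percent at each measured CpG of the Ubl4a (17 CpGs) and Lep (8 CpGs) promoters, against distance from the transcription start in bases; filled symbols with solid lines are week 9 libraries and open symbols with dashed lines week 3 libraries. At Ubl4a the week 9 libraries lie mostly above the week 3 libraries, while at Lep the week 9 mature library stands below the others from 62 to 2 bases before the start.

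Of the 6 promoters with the largest rise among those without overlap, 4 lay on the X chromosome, as did 1 of the 6 with the largest fall. A middle level leaves room for a difference in either direction, and the X held 123 of the 181 tested promoters with a mean of 20 to 80% (68%). Nothing particular to the X is therefore read from these counts. Sms, which encodes spermine synthase, had 35.5%, 30.9% and 38.5% in week 9 stem, progenitor and mature, and 25.1%, 28.9% and 23.3% in week 3 stem, progenitor and mature. The week 9 mean was higher at 16 of its 19 CpGs, and the difference was 9.18 points (unadjusted p = 0.0133, adjusted p = 0.867 in the quasi-binomial model). It was 6.22 points without the mature pair, and the progenitor pair differed by 2.06 points. All week 9 libraries lay above all week 3 libraries at 6 of the 19 CpGs. By cell type, 15 were higher at week 9 in stem, 10 in progenitor and 16 in mature cells. Taf1, the largest subunit of the general transcription factor TFIID, averaged 32.9% ± 2.24 at week 9 and 26.0% ± 3.68 at week 3. Taf1 had the week 9 mean higher at 2 of only 3 measured CpGs, with an unadjusted p of 0.357 in the quasi-binomial model. Its pairs differed by 12.95 points in stem, 4.55 in progenitor and 3.14 in mature cells, and by 3.85 points on average without the stem pair. Ids, which encodes a lysosomal sulfatase, averaged 28.9% ± 1.58 at week 9 and 22.8% ± 3.22 at week 3 (SD, n = 3 each), with the week 9 mean higher at 11 of 11 CpGs. All week 9 libraries lay above all week 3 libraries at 0 of the 11, and 10 were higher at week 9 in stem, 9 in progenitor and 6 in mature cells.

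Chst7, an X-linked sulfotransferase gene, was the largest fall among those of the 7162 promoters whose weeks did not overlap. Week 9 stem, progenitor and mature had 14.2%, 23.6% and 27.0%, and week 3 stem, progenitor and mature had 31.0%, 29.1% and 27.4%, so that the stem pair differed by most and the mature pair hardly at all. The difference of -7.57 points was -2.97 points without the stem pair. On autosomes, the promoter of 4932438H23Rik, on chromosome 16, averaged 72.7% ± 2.98 at week 9 and 66.7% ± 1.57 at week 3. The other falls were small. Gm16254 averaged 82.0% at week 9 and 87.3% at week 3, a difference of -5.33 points that was -3.35 without the progenitor pair, and Gm34536 92.1% at week 9 and 95.4% at week 3. Celf3, an RNA-binding protein gene, averaged 1.83% at week 9 and 4.99% at week 3, and A730013G03Rik 4.19% at week 9 and 7.22% at week 3. In both the mature pair held most of the difference: -3.16 points at Celf3 became -1.14 without it, and -3.04 points at A730013G03Rik became -0.284. Phox2a, a homeobox gene of autonomic neurons, averaged 2.12% at week 9 and 4.94% at week 3. None of these promoters had an adjusted p below 0.867.

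**Figure D5:**
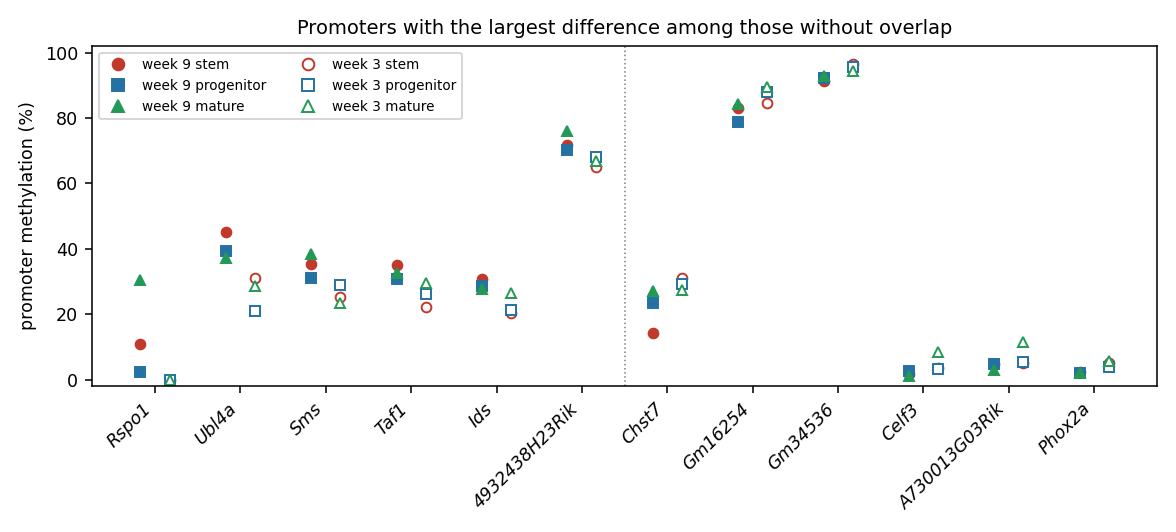
Promoter methylation in percent in each library for the 6 largest rises (left of the dotted line) and the 6 largest falls (right) among promoters whose weeks did not overlap; filled symbols are week 9 and open symbols week 3. Ubl4a has 37.3 to 45.1% at week 9 and 21.1 to 31.0% at week 3, while Celf3, A730013G03Rik and Phox2a lie near 0 at both weeks.

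X-linked promoters as a class were described next, since their islands are methylated on the inactive X. Of the 157 tested, 123 (78.3%) had a mean of 20 to 80%, against 58 of the autosomal promoters (0.828%). The 123 averaged 30.1%, 28.9% and 28.3% in week 9 stem, progenitor and mature, and 27.6%, 26.9% and 29.5% in week 3 stem, progenitor and mature. The difference was 2.48 points in stem, 2.06 points in progenitor and -1.29 points in mature cells, a mean of 1.09 points (exact permutation p = 0.5). Of the 123, 79 were higher at week 9 in stem, 85 in progenitor and 51 in mature cells, and 7 lay above (5.69%) and 2 below (1.63%) without overlap between the weeks, against 3.18% and 4.82% of all promoters. Most of all promoters lie near 0%, so the nearer class is the 58 autosomal promoters of 20 to 80%. Of these, 1 lay above (1.72%) and 0 below without overlap. Their differences were 1.54, 2.57 and -0.250 points in stem, progenitor and mature cells. The X-linked and autosomal classes thus shared their signs in each cell type, and a difference between the classes was not tested.

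Genes known from the mammary gland were taken in 6 lists, in which 47 genes had a placed promoter, also counting windows placed between placed neighbours. None was called, and the smallest adjusted p was 0.884 (8524 promoters tested, quasi-binomial model, 2.52% at an unadjusted p under 0.05). Of the 47, 41 lay below 10% in all 6 libraries. Placed promoters are CpG-rich, so the lists are counted only over such promoters.

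Hormone receptors and signals of puberty had 5 of 20 promoters placed, and all 5 lay below 10%, with no library above 1.32%. Erbb4, a receptor tyrosine kinase needed for lactation in the mouse, had the largest difference, -0.382 points. Esr2, the second estrogen receptor, averaged 0.162 points higher at week 9, and Igf1r, the receptor through which growth hormone acts by way of Igf1, differed by -0.0728 points. The list's median difference was -0.0125 points, against -0.0119 points over all 8524 promoters. Among luminal transcription factors and paracrine signals, 7 of 18 promoters were placed, and none passed 1.13% in any library. They included Gata3, which maintains luminal cells, Stat5a and Stat5b, which act downstream of prolactin, and Wnt4, a progesterone target in luminal cells. Runx1 differed by 0.413 points, Gata3 by -0.178 points and Wnt4 by -0.144 points.

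Basal and stem cell regulators had 7 of 20 promoters placed, none above 5.31%, and a median difference of -0.280 points. Bcl11b, a zinc finger regulator of mammary stem cell quiescence in the mouse, had 0.331%, 4.15% and 1.95% in week 9 stem, progenitor and mature, and 3.24%, 2.56% and 5.31% in week 3 stem, progenitor and mature. Egr2 and Vim, the gene of the intermediate filament vimentin, differed by -0.350 and -0.327 points. The cell cycle and chromatin list had 13 of 16 promoters placed and all 13 below 10%. They included Dnmt1, Dnmt3a, Dnmt3b, Tet1, Tet2, Tet3 and Uhrf1, which copy, add or remove methylation, and the cell cycle inhibitors Cdkn2a and Cdkn2b. Tet1 had the largest difference, 0.713 points, with 4.55% in week 9 stem and 0 to 2.21% in the other 5 libraries.

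Among Hox and patterning genes 8 of 20 promoters were placed, of which 7 were higher at week 9 on average, by small amounts (median 0.446 points). Of all 8524 promoters 3805 were higher and 4453 lower, and the basal and imprinted lists each had 6 of 7 lower. Hoxa11 and Hoxa5, homeobox genes of a cluster that patterns the body axis and limbs, were the only ones of the 8 above 10% in any library. Hoxa11 had 7.92%, 12.0% and 18.7% in week 9 stem, progenitor and mature, and 12.7%, 9.60% and 9.66% in week 3 stem, progenitor and mature. Hoxa5 had 11.0 to 13.4% at week 9 and 9.85 to 14.8% at week 3. The weeks overlapped at both. Their mean differences of 2.21 and 0.870 points turned to -1.20 and -0.484 points without the mature pair.

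Imprinted genes had 7 of 21 promoters placed, 4 of them at middle levels. Plagl1, a zinc finger gene expressed from the paternal copy, had 34.3%, 25.9% and 33.5% in week 9 stem, progenitor and mature, and 31.6%, 21.5% and 22.5% in week 3 stem, progenitor and mature. All pairs were higher at week 9, by 6.02 points on average and 3.54 without the mature pair, but the weeks overlapped, and the window shares bases with that of Hymai. These levels pool reads over CpGs of unequal depth. Counted by CpG, the mean over libraries was higher at week 9 at 9 of 11. By cell type, 3 were higher at week 9 in stem, 3 in progenitor and 8 in mature cells. Several of those not higher in stem were at 0 in both stem libraries. Zrsr1, a paternally expressed gene of a splicing factor, had 44.97%, 43.0% and 40.1% in week 9 stem, progenitor and mature, and 45.95%, 46.2% and 51.6% in week 3 stem, progenitor and mature (difference -5.22 points, and -2.08 without the mature pair). The week 9 libraries all lay below the week 3 libraries there. The pairs went both ways at the others. Mcts2, a paternally expressed retrogene, differed by -8.15 points in stem, 2.05 in progenitor and -0.787 in mature cells. Igf2r, the receptor that clears Igf2, differed by -7.51, -1.02 and 2.52 points in the same order. Their means of -2.30 and -2.001 points turned to 0.629 and 0.751 points without the stem pair. Igf2, Grb10 and Gnas lay below 10% in all libraries at these windows.

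The cell type labels could hardly be tested at marker promoters, since Id4 (basal), Kit (luminal progenitor), Gata3 (mature luminal) and Col1a2 (fibroblast), the only markers of their lists with a placed promoter, had at most 1.22% in any library. No promoter of the blood, endothelial or general epithelial lists was placed. Lep, 1 of 4 adipocyte markers, was the exception. It had 55.6%, 52.2% and 23.9% in week 9 stem, progenitor and mature, and 52.6%, 39.0% and 62.8% in week 3 stem, progenitor and mature. The mature pair was 38.9 points lower at week 9 and the progenitor pair 13.2 points higher, and the mean difference of -7.59 points was smaller than this spread (unadjusted p = 0.248, adjusted p = 0.884, quasi-binomial model). It became 8.09 points without the mature pair. At the CpG 52 bases before the start week 9 mature had 25.8% of 182 reads, and the other libraries had 58.3 to 89.3%. At the CpG 2 bases before the start week 9 mature had 14.2% of 218 reads and week 3 mature 66.4% of 107. The share of fat cells in each library was not tested.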

How the data were processed

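Bisulfite libraries of mammary epithelium were made from MspI fragments (multiplexed RRBS), per the labels' protocols. In column 4 of the deposited files, each CpG has its methylated reads over all its reads as a pair of whole numbers. The build is mm9, per the submitters' processing notes. How reads were aligned, called and filtered, and whether duplicates were removed, is not given in the sources used here. Libraries were grouped by the age in their labels and paired by cell type label. The members and gene lists were chosen with earlier results of these data known.

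CpGs with at least 5 reads in all 6 virgin files were kept. Reads were summed per 1000 bp tile or promoter window with at least 3 such CpGs, while mean levels weighted each CpG equally. A quasi-binomial logistic regression of each tile or window on week and cell type (block; 2 residual degrees of freedom) was tested by F and adjusted by Benjamini-Hochberg over the whole table. Calls needed an adjusted p under 0.05 and 10 points. The dispersion was held at 1 or above and moderated as in limma's squeezeVar within classes of mean level bounded at 1, 10, 30, 70 and 90%. These classes were chosen after seeing the data, when a test on simulated data with 1 moderation recovered no changed tiles. With the classes, changed tiles were recovered when all tiles shared 1 spread. With the spread fitted here no changed tile was called in that test, while some promoters were, so the absence of called tiles says little. Unadjusted p-values came out too small there. Of unchanged promoters 21.1 to 22.8%, and of unchanged tiles 7.05 to 7.72%, had an unadjusted p under 0.05 in the quasi-binomial model. In the data 3.03% of promoters and 2.96% of tiles had such a p, so the simulated counts did not behave like the data. The cause of this gap was not tested.

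The RefSeq table is on GRCm38.p6, and none of its coordinates were used. A window of 300 bases was placed where the spacing of its CG dinucleotides matched at least 7 listed CpGs of the same chromosome with no mismatch and at least 3 more than at the next best place. Of 7681 neighbouring pairs of placed windows, 2 were out of the table's order. The lists also used 1498 windows placed between neighbours (5 CpGs and a margin of 2), added after seeing the data. Of the windows, 1680 share bases with a window of another gene.

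Among tiles and among promoters whose weeks did not overlap, the 6 largest rises and 6 largest falls were named, and in each list the 3 largest differences and all markers. Other genes are described from the lists as examples, and Rspo1, Ubl4a and Lep were shown in detail after their values were seen. Alternatives were 10 reads, 500 bp tiles, 5 CpGs per tile, 20 points, no block, limma with trend and robust moderation on log2 ratios with a pseudocount of 1, leaving out sex chromosomes or CpGs past the 99th percentile of depth, thinning, all 18 libraries, and leaving out libraries or pairs. Python 3.11.15, numpy 2.4.6, scipy 1.17.1, pandas 2.3.3, numba 0.67.0, matplotlib 3.10.9, R 4.3.3 and limma 3.58.1 were used.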

Additional observations from a re-analysis of the deposited data

Results flagged for a closer look

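In 3 measures the stem pair and the mature pair differed in opposite directions at week 9 against week 3. The mean over all shared CpGs was 0.527 points higher at week 9 in stem cells and differed by -1.12 points in mature cells, a gap of 1.65 points. At CpGs of 20 to 80% the differences were 1.24 points in stem and -3.63 points in mature cells, a gap of 4.87 points. At the 123 X-linked promoters of 20 to 80% they were 2.48 points in stem and -1.29 points in mature cells, a gap of 3.77 points. Each difference compares 1 library with 1 library, so the gaps were not tested. The week 9 mature library was also the one whose deviations followed the pregnant and retired stem libraries (r across 77064 tiles 0.465), and the part of this in the gaps was not tested.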

How the results depend on the processing

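Of 487 alternative values for 31 results, 450 kept their sign and their side of the test, or, for counts, lay within 1.5 times. A further 31 moved, 4 reversed, and 2 passed the test where the reported value had not (Ubl4a). These 2 compare the same stem and progenitor libraries, so they are not separate checks. All 393 values of named tiles and promoters kept their sign. These were named because their weeks did not overlap, so leaving out libraries could not reverse them, and several other settings reuse the same difference. They make up most of the 487 values, so the count of kept values says little about stability. The mean difference over all CpGs (-0.198 points) became 1.20 points with reads pooled over the shared CpGs and 0.289 points with any CpG of 5 reads. It ran from -0.561 points without both stem libraries to 0.265 points without both mature libraries, and at CpGs of 20 to 80% from -1.60 to 0.832 points. No test of a mean level could pass the threshold (smallest possible p 0.25), so these say nothing about stability. The count of tiles 20 points apart in all cell types (9) was 3 with 10 reads, 14 with thinned reads, 196 at 10 points, and 86 to 296 with 1 cell type left out, where fewer pairs had to meet the rule. The cause of the other changes was not tested.

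No tile or promoter was called under any planned or added alternative that kept all 6 libraries. Leaving out libraries gave 0 to 3 called tiles: chr14:70479001 without week 9 progenitor, chr2:163165001 without week 3 progenitor, and both with chr5:111849001 without both. It gave 0 to 3 called promoters: Ubl4a, Entr1 and Map10 without week 9 mature, and Ubl4a and Entr1 without both mature libraries. With cell type as a block, leaving out 1 or both libraries of a cell type compares the same remaining pairs. The calls in such settings are thus not separate checks. The window of Entr1 shares bases with that of Pmpca. The pairing follows the cell type labels, and the replicate numbers were given in accession order. Without the replicate block 0 tiles (4074 at an unadjusted p under 0.05) and 0 promoters (374, against 217 with it) were called, and the mean difference had an exact permutation p of 0.7. Limma gave 3853 tiles and 437 promoters at an unadjusted p under 0.05, 1 moderation over all levels 3979 and 232, and thinning 3406 and 97. All 18 libraries together called 0 of 77064 tiles, with a smallest adjusted p of 0.387.

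Depth limits single tiles: those named had 15 to 254 reads per library. Each group of a cell type and week is 1 library, so age, animal and library cannot be told apart within a cell type. Middle-level promoters outside CpG-rich sequence, exons, introns and untranslated regions were not analysed here.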

Other observations

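Other successive stages of the series were set beside this step over 77064 tiles, as a description. For week 9 against week 3 the pair differences had r across tiles of -0.0436 for stem and progenitor, -0.0854 for stem and mature, and -0.331 for progenitor and mature cells. For day 16 against day 10 of pregnancy the values in this order were 0.0168, -0.0144 and 0.164, and for day 19 against day 16 they were 0.220, 0.193 and 0.413. Thinned to the shallowest of the 18 libraries, r for progenitor and mature cells was -0.202, 0.123 and 0.355 in the 3 steps. The pregnancy steps share the day 16 libraries, so the values are given side by side without a comparison.

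Some X-linked promoters outside the rule for named ones were picked after their values were seen. Gjb1, which encodes a gap junction protein, had 71.4%, 38.6% and 52.7% in week 9 stem, progenitor and mature, and 47.0%, 45.6% and 33.4% in week 3 stem, progenitor and mature. Ndufb11, a subunit of mitochondrial complex I, had 23.5%, 25.3% and 31.3% in week 9 stem, progenitor and mature, and 40.2%, 31.0% and 44.2% in week 3 stem, progenitor and mature. The 2 weeks overlapped at both promoters, at Ndufb11 by less than 1 point.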
